A study of Mus musculus with 8 samples.

Results

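The endoplasmic reticulum (ER) chaperones described here are 10 genes, Hspa5, Hsp90b1, Pdia6, Pdia4, Calr, Manf, Creld2, Dnajc3, Sdf2l1 and Hyou1, out of 33027 genes measured by single-cell RNA sequencing of mouse lung. They were chosen because their mean transcripts per 10,000 were lower in smoke-exposed mice than in control mice in many cell types, so that exposure difference chose them and is given below as a description. Calls from a fit over all genes are counted for them, and support nothing about genes chosen this way. Their promoter letters and the other genes of the pathway were not used to choose them, nor were their levels across cell types, although a mean over all 8 mice contains the exposure difference. Lungs came from 8 C57BL/6 mice carrying Sftpc-CreERT2 and the mTmG reporter, an allele that tamoxifen switches in cells expressing Sftpc, the surfactant gene of alveolar type II (AT2) cells. All mice, controls included, received tamoxifen as young adults. Afterwards 4 mice breathed cigarette smoke (CS) and 4 breathed room air (RA) for 10 months. Each library is 1 mouse, and the mouse is the replicate. Right lungs were digested with collagenase and elastase, CD45+ immune cells were separated with magnetic beads and mixed back as a minority, so that the share of immune cells was set by hand, and cells were captured with the 10x Genomics 3′ v3 kit. Cell types are those the authors annotated, and marker levels are given here for AT2 and ciliated cells only. Sftpc had a mean of 1158 per 10,000 in CS and 1202 in RA AT2 cells. Foxj1, the regulator of motile cilia, had 6.37 and 7.11 in ciliated cells.

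Proteins that are secreted, or that sit in membranes, fold inside the ER. BiP, the product of Hspa5, binds unfolded chains there with its J-domain helpers and exchange factors, while disulfide isomerases and lectin chaperones act on the same clients. When unfolded proteins build up, the sensors Ern1 (IRE1), Eif2ak3 (PERK) and Atf6 start the unfolded protein response, and the transcription factors XBP1 and ATF6 then raise chaperone genes through a promoter sequence called the ER stress element. Fibroblasts, mesothelium, secretory epithelium and plasma cells carry a large secretory load.

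The files held 41106 cells, of which 40074 with a cell type other than multiplet (1025) or cell cycle (7) were used, 20330 from CS and 19744 from RA mice. Total counts per mouse ran from 31094700 to 52753500 and the median per cell from 4254 to 6473, with CS and RA mice interleaved. A set of 197 barcode sequences occurred in more than 1 library. In the 4 CS libraries the X-inactivation transcript Xist and the Y-linked gene Ddx3y went against the labelled sex (Xist 7.83 and 8.34 per 10,000 in CS mice 1 and 2, labelled male), whereas the 4 RA libraries matched. No gene was fixed as a check of the exposure labels. In all, 32 types were annotated, 22 had at least 20 cells in 3 or more mice of each group, and 17 had 20 cells in every mouse. A value below is the mean over a mouse's cells of transcripts per 10,000, and a difference is that of log2(value + 1) between CS and RA means, on a scale that understates the change of low genes.

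The promoters are shown first because 6 of the 8 chaperone genes found in the RefSeq promoter table (GRCm38.p6) share 1 sequence. The window ran from 250 bases before to 50 bases after the RefSeq start. The element searched, on both strands, was CCAAT, 9 bases of any kind, then CCACG, and it is in capitals below with 5 flanking bases on each side. Each line is written 5′ to 3′ in the direction in which CCAAT is read.
Hspa5: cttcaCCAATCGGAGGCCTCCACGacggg
Hsp90b1, farther site: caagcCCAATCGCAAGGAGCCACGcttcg
Hsp90b1, nearer site: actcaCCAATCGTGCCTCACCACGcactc
Pdia6: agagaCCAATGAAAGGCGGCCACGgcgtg
Calr: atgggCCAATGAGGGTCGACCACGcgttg
Creld2: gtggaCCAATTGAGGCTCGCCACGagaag
Dnajc3: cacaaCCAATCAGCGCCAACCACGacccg

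These runs lie at chr2:34772020-34772048 (Hspa5, plus strand), chr10:86705633-86705661 (Hsp90b1, minus strand), chr10:86705528-86705556 (Hsp90b1, plus strand), chr12:17266486-17266514 (Pdia6, plus strand), chr8:84847070-84847098 (Calr, plus strand), chr15:88819515-88819543 (Creld2, minus strand) and chr14:118937822-118937850 (Dnajc3, plus strand). Counted from the RefSeq start, the Hspa5 element began 65 bases before it, that of Pdia6 98 bases and that of Dnajc3 105 bases. That of Creld2 began 126 bases and that of Calr 162 bases before. In the GENCODE annotation Hspa5 begins at chr2:34771970 (plus strand), so that the Hspa5 run lies inside the gene as annotated there. Hsp90b1 held a pair, 107 and 212 bases before its start. In Calr, in Creld2 and in the nearer Hsp90b1 site the CCAAT lies on the strand opposite to the gene. Over the whole table, 37 of 27025 genes (0.137%) held the element in such a window. The windows of Pdia4 and Sdf2l1 did not contain these letters. A related element, ATTGG, 1 base, CCACG, was in none of the 8 and in 0.0444% of all genes, and TGACGTG, the core of the XBP1 site and part of other factors' sites, was in 2.22% of all genes and in Hspa5 only among the 8 (agcaaTGACGTGagttg, chr2:34771928-34771944, plus strand). A match of letters describes the sequence and does not show binding. In the GENCODE annotation of GRCm38 the genes lie on different chromosomes except for Manf (chr9:106838312-106891979, minus strand) and Hyou1 (chr9:44379490-44392369, plus strand), which share chromosome 9.

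Across the 17 cell types with 20 cells in every mouse, adventitial fibroblasts, ciliated cells and alveolar macrophages stood among the highest for most of the chaperones. Mesothelium is not among the 17, because CS mouse 1 had 9 such cells. In RA mice its 10 levels summed to a mean of 69.3, above the 53.3 of adventitial fibroblasts. Peribronchial fibroblasts, NK and cytotoxic T cells, non-classical monocytes and the cells labelled mast are not among the 17 either. Within the 17 types, in the means of the 4 RA mice, adventitial fibroblasts led for 8 of the 10 genes. Alveolar macrophages led for Hsp90b1 and ciliated cells for Creld2. In the means of the 4 CS mice alveolar macrophages led for 5 (Hsp90b1, Pdia6, Pdia4, Calr and Hyou1), adventitial fibroblasts and ciliated cells for 2 each and AT1 cells for Dnajc3. Calr, for example, was at 7.92 in adventitial fibroblasts and 7.13 in alveolar macrophages of RA mice, and at 4.45 and 6.14 in CS mice. Over all 8 mice, adventitial fibroblasts had the highest mean for Hspa5, Pdia6, Manf and Dnajc3. Alveolar macrophages then led for Hsp90b1, Calr and Hyou1, ciliated cells for Pdia4 and Creld2, and classical monocytes for Sdf2l1. In 10 alternatives that pool CS and RA mice (another pseudocount, summed counts and each mouse left out) the leading type was the same in all 10 for 7 genes, but in 5 for Pdia4, 7 for Sdf2l1 and 8 for Hyou1, and adventitial fibroblasts led for Pdia4 and Hyou1 with summed counts. Neutrophil granulocytes, short-lived cells with few transcripts, were lowest for 9 of the 10, and club cells for Hspa5. The lead of the first type over the second did not pass for any gene with an exact two-sided sign-flip permutation test over 8 mice and Benjamini-Hochberg adjustment over 10 genes. The closest were Manf, 3.83 ± 2.14 (SD, n = 8) in adventitial fibroblasts against 2.34 ± 0.854 in ciliated cells and higher in 7 of 8 mice, and Creld2, 1.73 ± 0.427 in ciliated cells against 0.956 ± 0.729 in adventitial fibroblasts and higher in 7 of 8 mice (exact p = 0.0156, adjusted p = 0.0781 for each). The SDs here span both exposures. For Pdia4 the 2 leading types had means of 1.15 and 1.14, and for Sdf2l1 0.635 and 0.619, far less apart than the spread between mice.

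**Figure D1:**
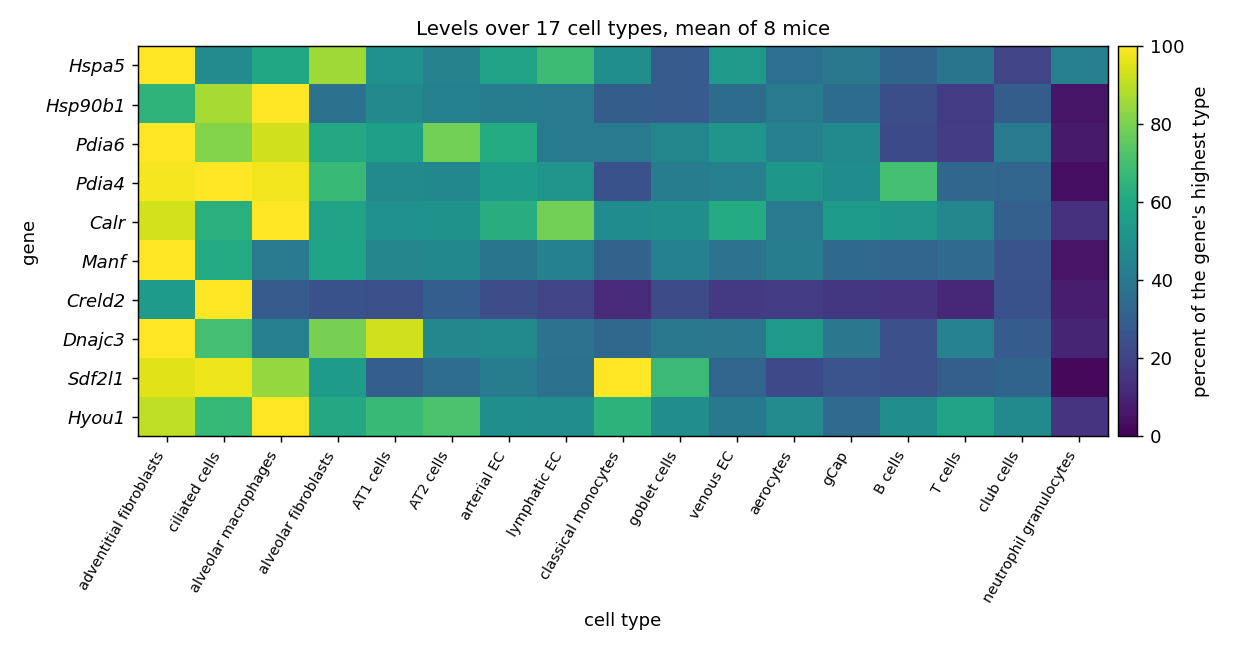
Rows are the 10 ER chaperones and columns the 17 cell types, ordered by their average. Mesothelium is not among these columns. Colour gives the mean over 8 mice as a percent of the gene's own highest type, so rows cannot be compared with each other in amount. Adventitial fibroblasts, ciliated cells and alveolar macrophages hold the brightest square of 9 rows and classical monocytes that of Sdf2l1, Creld2 is bright in ciliated cells with adventitial fibroblasts next, and neutrophil granulocytes are dark in every row but Hspa5.

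AT2 cells, which make and secrete surfactant and are the cells the reporter marks, were above the mean of the other 16 types for 4 of the 10 genes in each of the 8 mice. The other 16 types do not include mesothelium. This comparison pools CS and RA mice and so contains the exposure difference that chose the genes, so the 4 RA mice are given beside it. With 4 mice an exact two-sided test cannot go below p = 0.125. Pdia6, a disulfide isomerase, had the largest lead, with 2.79 ± 0.444 (SD, n = 8) in AT2 cells against 1.80 ± 0.509, a log2 difference of 0.53 (higher in 8 of 8 mice). Hsp90b1 was higher by 0.23 (log2), Creld2 by 0.10 and Hyou1 by 0.08, each in 8 of 8 mice. In the RA mice alone the leads were smaller, 0.41 for Pdia6, 0.17 for Hsp90b1, 0.07 for Creld2 and 0.07 for Hyou1, each in 4 of 4 mice. As plain means, RA AT2 cells had 5.44 against 5.43 over the other types for Hsp90b1 and 0.615 against 0.600 for Creld2. For Pdia6 they had 3.08 against 2.26, and for Hyou1 0.316 against 0.262. Over all 8 mice, for these 4 genes the exact sign-flip p was 0.00781, the smallest that 8 mice can give, and the adjusted p 0.0195. For Hspa5 the exposure groups lay on opposite sides: AT2 cells had 5.56 against 7.44 over the other types in RA mice (log2 difference -0.25, higher in 0 of 4) and 4.79 against 4.38 in CS mice (0.17, higher in 4 of 4), so that the difference over 8 mice was -0.04 (adjusted p = 0.688, exact sign-flip test). Calr was alike, with -0.14 and 0 of 4 in RA mice and 0.10 and 4 of 4 in CS mice. Calr, Dnajc3, Pdia4, Manf and Sdf2l1 did not pass either over 8 mice, with log2 differences from -0.07 to 0.17, and Manf was higher in AT2 cells in 2 of 4 RA and 4 of 4 CS mice. AT2 cells ranked 3rd to 5th of 17 types for the 4 genes that passed and 4th to 11th for the other 6.

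In the RA mice, the order of the 17 types by summed chaperone level was followed most closely, leaving out the 10 genes themselves, by Morf4l2 (Spearman's rho 0.958), Pdia3 (0.956), Psmb6 (0.924), Bola3 (0.909), Nudt2 (0.902), Nenf (0.900), Anapc11 (0.900), Chchd1 (0.892), Slc35b4 (0.892) and Nelfe (0.892) among 14427 genes. Pdia3 encodes a disulfide isomerase that works with calreticulin and Psmb6 a proteasome subunit. The types share libraries and differ in depth, and the correlation only describes these 17 points.

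The exposure difference covered 202 gene-by-type values of 220, since 18 were found in under 10% of the cells of both groups and were not tested. A low gene can pass this filter through the group where it is higher. The direction of such values can be partly set by the filter. Of the 202, 191 were lower and 11 higher in CS, with a median log2 difference of -0.25, beside 0.01 over all 172262 gene-by-type values, of which 45.8% were lower. Each type was fitted with limma over all its genes. With a Benjamini-Hochberg adjusted p under 0.05, 53 chaperone values were called lower, where 0.518% of all values were, and 0 higher (also 0 at an unadjusted p under 0.05), where 0.712% were. Every CS mouse lay below every RA mouse in 113 of the 202, and in 4.67% of all values. Because this difference chose the genes, nothing is read from these counts against their backgrounds. The 53 calls became 33 with the sequencing lane as a block (each lane held 1 CS and 1 RA mouse), 34 without CS mouse 3 and 24 without CS mouse 4, while the number of lower values stayed between 186 and 193 when any 1 mouse was left out. Within lanes the CS mouse was below the RA mouse in 669 of 755 comparisons (88.6%).

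**Figure D2:**
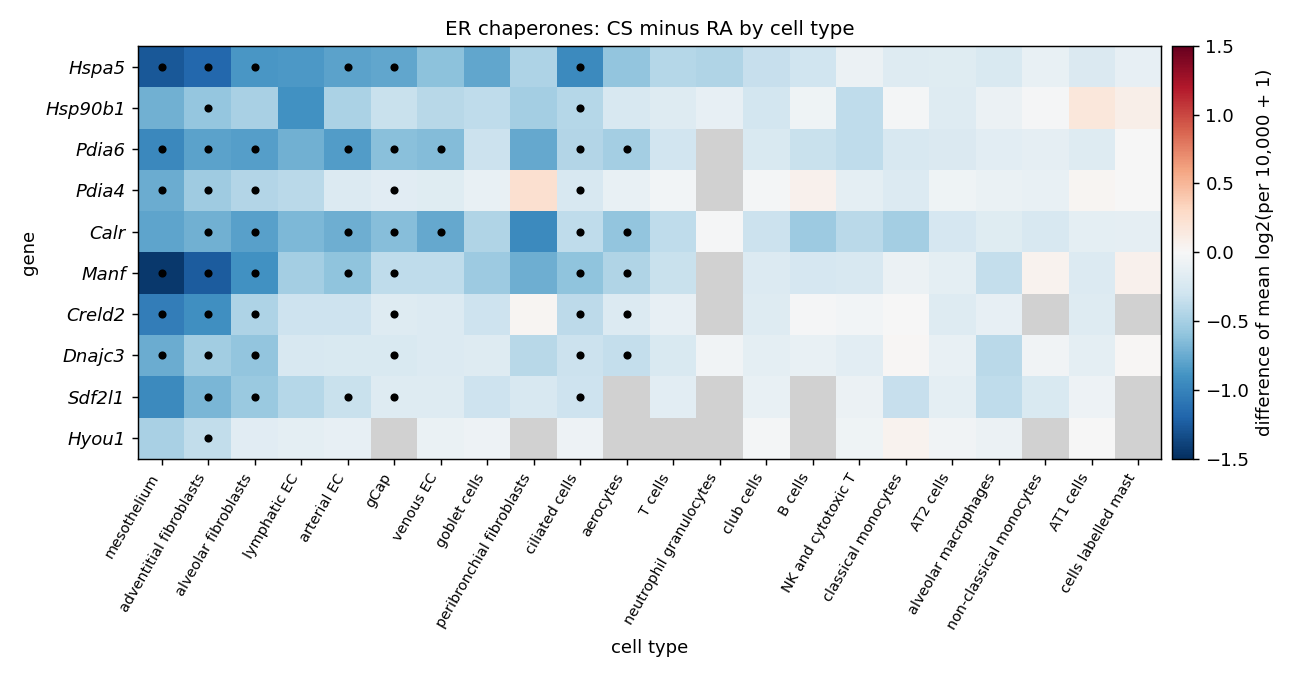
Rows are the 10 ER chaperones and columns 22 cell types, ordered from the lowest to the highest CS to RA ratio of their sum. Colour is the difference of mean log2(per 10,000 + 1), CS minus RA, a dot marks an adjusted p under 0.05, and grey a gene found in under 10% of cells. The deepest blue is in mesothelium and adventitial fibroblasts, down to -1.45 for Manf, and the right side of the map is close to 0.

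The 10 levels summed give a size of the difference in each type, weighted to the genes with high levels. In RA adventitial fibroblasts Hspa5, Hsp90b1 and Calr had means of 16.5, 9.11 and 7.92 in a sum of 53.3. In adventitial fibroblasts, the collagen-making cells around vessels and airways, the sum was 24.3, 26.7, 29.9 and 21.6 in CS mice 1 to 4 and 52.1, 48.3, 53.1 and 59.8 in RA mice 1 to 4. No CS mouse came near an RA mouse there, and the ratio of means was 0.480. Mesothelium, the lining of the pleura, had 30.6, 33.0 and 27.9 in the 3 CS mice with 20 cells and 60.1, 51.9, 74.3 and 91.0 in RA mice, a ratio of 0.440 with a wide spread between RA mice. Alveolar fibroblasts had a ratio of 0.505, lymphatic endothelial cells (EC) 0.518, arterial EC 0.556, general capillary cells (gCap) 0.601, venous EC 0.605, peribronchial fibroblasts 0.616 (3 mice a group), ciliated cells 0.640 and aerocytes, the gas-exchange capillary cells, 0.654. Groups did not overlap in any of these types.

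The same sum differed less in alveolar epithelium and most immune types. AT2 cells had 17.9, 20.8, 20.7 and 18.9 in CS mice and 20.8, 25.2, 22.8 and 24.96 in RA mice, a ratio of 0.835 with the groups only just apart. AT1 cells, the flat gas-exchange cells, had 23.6, 23.2, 22.5 and 19.4 against 22.1, 25.6, 23.1 and 26.8, a ratio of 0.909 with overlap. Alveolar macrophages (0.841), classical monocytes (0.809) and the cells labelled mast (0.938, 3 RA mice) overlapped too. Goblet cells also overlapped, although their ratio of 0.608 was lower than the 0.640 of ciliated cells. In goblet cells the overlap came from RA mouse 1, at 11.3 against 20.5 to 24.8 in the other RA mice. T cells (0.717), neutrophil granulocytes (0.735), club cells (0.751) and B cells (0.762) did not overlap. Nor did NK and cytotoxic T cells (0.781) and non-classical monocytes (0.890), each with 3 RA mice. In non-classical monocytes the highest CS sum was 13.1 and the lowest RA sum 13.4. For no single gene of the set was every CS mouse below every RA mouse there. In neutrophil granulocytes Hspa5 made up 5.95 of the RA mean of 8.92, and the 4 genes tested had a median log2 difference of -0.09. Altogether the groups were apart in 17 of 22 types, and the lowest CS mouse was mouse 4 in 14 of the 22. A sum has no share over all genes beside it, and nothing is read from this count. Whether the exposure difference itself differs between types was not tested, because the same contrast chose the genes.

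**Figure D3:**
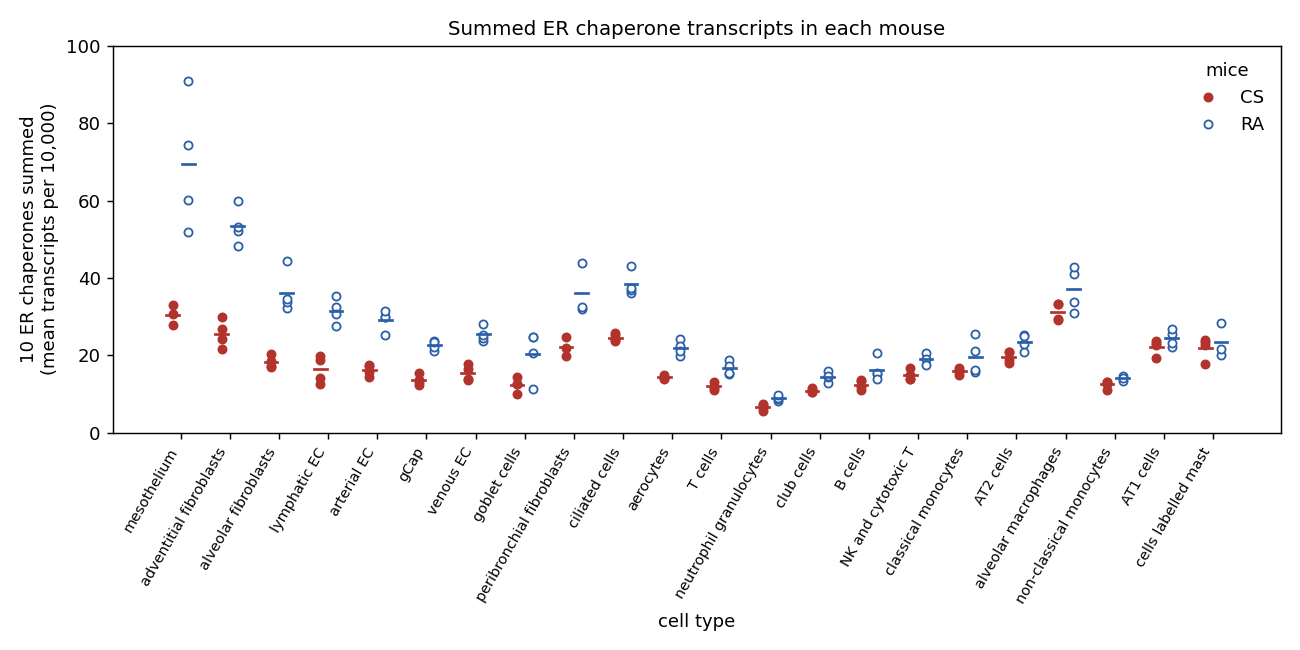
Each point is 1 mouse, filled for CS and open for RA, and the y axis is the sum of the 10 mean levels per 10,000, with a bar at each group's mean. Types run from the lowest CS to RA ratio (mesothelium, 0.440) on the left to the highest (cells labelled mast, 0.938) on the right. CS points lie close together at 21.6 to 29.9 in adventitial fibroblasts, under RA points at 48.3 to 59.8.

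The calls fell in 8 types. In several other types 0 genes of any kind were called, so that no call of a chaperone there sets it apart. These were AT2 cells (of 9032 genes), lymphatic EC (of 8281), peribronchial fibroblasts and the cells labelled mast. They also included B cells, T cells, NK and cytotoxic T cells, neutrophil granulocytes and both types of monocyte. All 10 genes were called lower in adventitial fibroblasts, where 1.19% of all genes were. Ciliated cells had 9 (all but Hyou1) beside 1.91% of genes, and gCap 8 of 9 tested (all but Hsp90b1) beside 3.97%. Alveolar fibroblasts had 8 (not Hsp90b1 or Hyou1) beside 0.672%, mesothelium 6 beside 0.234%, arterial EC 5 beside 0.328%, aerocytes 5 of 8 beside 0.989% and venous EC 2 beside 0.0649%. In alveolar fibroblasts the count was 8 whichever mouse was left out and 7 with lane as a block. In the other types the count changed with the mouse left out. In gCap the 8 calls became 0 without CS mouse 4, 3 without CS mouse 1, CS mouse 3 or RA mouse 2, and 0 with lane as a block. In ciliated cells 9 became 5 without CS mouse 4 and 5 with lane as a block. In mesothelium 6 became 1 without CS mouse 3, CS mouse 4 or RA mouse 3, 2 without CS mouse 2, 4 without RA mouse 1, and 8 with lane as a block. In arterial EC 5 became 1 without CS mouse 1 or 4, 2 without CS mouse 2, CS mouse 3 or RA mouse 4, and 3 with lane as a block. In aerocytes 5 became 1 without CS mouse 2, 2 without CS mouse 1 or 4, 3 without CS mouse 3, RA mouse 2 or RA mouse 4, and 4 with lane as a block. The 2 calls in venous EC were lost with lane as a block and without any single mouse other than RA mouse 1. In adventitial fibroblasts 10 became 6 without RA mouse 4 and 5 with lane as a block.

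Hspa5, the central Hsp70 of the ER, was lower in CS in 22 of 22 types. Its adventitial fibroblast level was 5.68, 7.17, 8.03 and 6.08 in CS mice 1 to 4 and 16.2, 14.9, 16.6 and 18.1 in RA mice, a log2 difference of -1.18 (SE 0.13). In gCap it was 2.84, 4.01, 3.31 and 2.44 against 7.41, 7.11, 5.17 and 4.95 (-0.78, SE 0.15), and RA mice 1 and 2 stood above RA mice 3 and 4. Ciliated cells held 3.28, 3.60, 3.68 and 3.35 against 6.87, 10.1, 6.95 and 7.10 (-0.95, SE 0.11), with the CS mice tightly grouped. In AT2 cells, where it was not called, the level was 4.21, 5.16, 5.16 and 4.62 against 5.195, 6.22, 5.06 and 5.77 (-0.18, SE 0.10), and 2 CS mice were above the lowest RA mouse. The smallest difference was in NK and cytotoxic T cells, at -0.08.

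The partners of BiP differed in how far they went with it. Manf, a small secreted protein that binds BiP, had the lowest log2(value + 1) difference of the set, in mesothelium, while by ratio of means Sdf2l1 and Creld2 went lower. Manf was at 1.45, 1.91, 2.41 and 1.71 in CS against 5.09, 5.95, 5.85 and 6.26 in RA adventitial fibroblasts (-1.25, SE 0.12), and its difference in mesothelium was -1.45 (SE 0.14). No CS value of Manf reached a level near the RA values in adventitial fibroblasts. Dnajc3, a J-domain co-chaperone, was at 3.04, 2.82, 3.14 and 2.81 against 4.39, 4.73, 4.64 and 4.91 there (-0.52, SE 0.09), and its largest difference was -0.74 in mesothelium. Its 2 positive values were 0.01 in the cells labelled mast and 0.02 in classical monocytes. Sdf2l1, which forms a complex with the J-domain protein encoded by Dnajb11, was at 0.0352, 0.125, 0.115 and 0.0824 in CS and 0.951, 0.423, 0.553 and 0.526 in RA alveolar fibroblasts, a ratio of means of 0.146 (log2 difference -0.56, SE 0.08). It was lower in 18 of 18 types tested, and for a gene this low the pseudocount hides most of the ratio. Hyou1, a nucleotide exchange factor for BiP, passed the detection filter in 14 types and was called in adventitial fibroblasts only, at 0.160, 0.239, 0.170 and 0.219 against 0.484, 0.503, 0.588 and 0.597 (-0.37, SE 0.05).

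Hsp90b1 (GRP94), the Hsp90 of the ER, which folds integrins and Toll-like receptors, was called in 2 types. Ciliated cells had 9.48, 8.10, 8.24 and 7.59 in CS against 11.1, 11.96, 11.2 and 11.95 in RA mice (-0.43, SE 0.08), without overlap. In adventitial fibroblasts the difference was -0.58 (SE 0.14). Its lowest value, -0.90 (SE 0.16), was in lymphatic EC, where CS mice had 2.29, 3.56, 3.37 and 2.88 and RA mice 6.10, 5.35, 7.81 and 6.82. It was not called there, where 0 of all 8281 genes tested were. In AT1 cells it was higher in CS by 0.16 (SE 0.10), with 6.64, 5.41, 5.38 and 5.56 against 4.84, 4.90, 4.96 and 5.32, so that the lowest CS mouse exceeded the highest RA mouse, and it was not called.

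Calr, the lectin chaperone calreticulin, which also stores calcium, was lower in 22 of 22 types and called in 7. In gCap it was 2.61, 2.98, 2.52 and 2.43 against 4.16, 4.70, 4.58 and 5.31 (-0.64, SE 0.09). Alveolar fibroblasts had 2.49, 2.36, 2.60 and 2.40 against 6.96, 4.66, 4.48 and 4.64 (-0.82, SE 0.12), with RA mouse 1 above the rest. Neutrophil granulocytes were at the other end, with 0.788, 0.845, 0.928 and 1.21 against 1.04, 1.03, 0.971 and 0.8196 (-0.02, SE 0.11) and the groups mixed.

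Among the genes for disulfide bond formation, Pdia6 was lower in 21 of 21 types and was called in 8, the most of the set. Its gCap level was 1.09, 1.23, 1.09 and 1.03 in CS and 1.76, 2.31, 2.40 and 2.65 in RA mice (-0.63, SE 0.08). Pdia4 was called in 5 types and was higher in CS in 3 others, with 0.25 in peribronchial fibroblasts (3 mice a group) as its highest value. In ciliated cells it was 1.08, 0.887, 1.04 and 0.895 against 1.33, 1.33, 1.33 and 1.31 (-0.24, SE 0.04), a narrow RA group above every CS mouse. Creld2, a cysteine-rich protein that ER stress induces, was at 0.300, 0.458, 0.420 and 0.193 against 1.11, 1.32, 1.66 and 2.19 in adventitial fibroblasts (-0.92, SE 0.11) and had a ratio of means of 0.162 in mesothelium. In ciliated cells, where its level was highest, it was 1.41, 1.34, 1.38 and 1.29 against 1.92, 2.43, 2.09 and 1.97 (-0.39, SE 0.06).

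**Figure D4:**
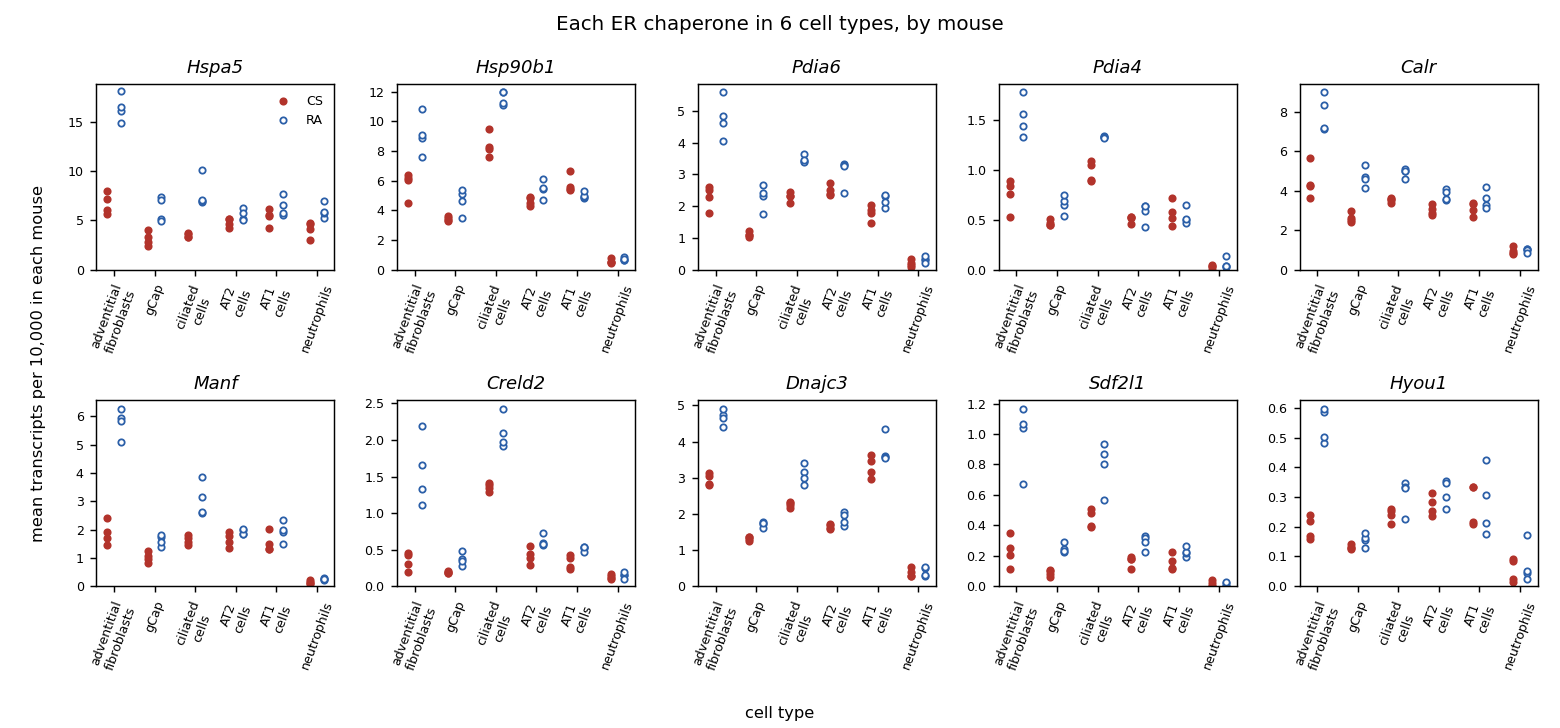
Each panel is 1 gene and each point 1 mouse, filled for CS and open for RA. The y axis is the mean transcripts per 10,000, from 0 and on its own scale in each panel, in 6 cell types. In adventitial fibroblasts open points sit above filled ones in all 10 panels (Hspa5 14.9 to 18.1 against 5.68 to 8.03), whereas in AT1 cells the groups overlap for Hspa5 (5.56 to 7.69 against 4.28 to 6.17).

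In adventitial fibroblasts the difference was present in cells of low, middle and high level, which did not hold in every type. For the 10 genes summed in single adventitial fibroblasts, the 10th percentile was 11.2 to 14.5 per 10,000 in CS mice and 22.2 to 33.6 in RA mice, the median 19.9 to 26.3 and 46.0 to 57.2, and the 90th percentile 36.3 to 50.1 and 77.3 to 85.2. All 3 points of the distribution were apart. Ciliated cells had medians of 22.3 to 24.3 and 33.4 to 37.8, and 10th percentiles of 13.4 to 15.5 and 19.4 to 20.4. In club cells the 10th percentile overlapped (4.10 to 5.35 and 4.42 to 5.58) while the 90th did not (17.7 to 19.9 and 22.6 to 32.3). In AT1 cells and alveolar macrophages all 3 points overlapped, with AT1 medians of 19.1 to 22.15 in CS and 21.9 to 25.2 in RA mice. With each cell thinned to 2000 transcripts, which left out 1413 CS and 1439 RA cells, 187 of the 202 values were lower and the median was -0.27.

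Other measures moved with the exposure groups in some of these types. A list of 10 genes known to respond to tissue digestion, among them Fos and Jun, summed to 43.9 to 73.7 in CS and 79.0 to 116 in RA gCap, without overlap. In ciliated cells the list summed to 50.1 to 102 and 92.3 to 131, with overlap. In AT1 cells it was 14.6 to 23.8 against 23.4 to 37.6, with a narrow overlap. Of the list's 220 gene-by-type values 9 were called lower by limma (4.09%, median -0.14). In adventitial fibroblasts it was 109 to 131 against 124 to 144, in alveolar fibroblasts 120 to 164 against 130 to 168, and in AT2 cells 36.8 to 53.6 against 41.5 to 43.8, all with overlap of the sums. As a single gene, Jun did not overlap in adventitial fibroblasts (11.98 to 13.7 in CS, 14.6 to 20.4 in RA), arterial EC (14.3 to 18.08, 18.12 to 23.9), venous EC (14.9 to 20.4, 21.6 to 27.6), T cells (0.847 to 1.003, 1.26 to 1.93) or neutrophil granulocytes (0.922 to 1.27, 1.34 to 5.10), nor Fos in peribronchial fibroblasts (17.4 to 25.6, 31.4 to 45.8), and neither was called there. Fos was called lower in ciliated cells (-0.70, adjusted p = 0.0399, limma) and Jun in gCap (-0.57, adjusted p = 0.0296, limma). Hspa1a, a heat-inducible Hsp70, was called in 0 of 21 types by limma (also 0 at an unadjusted p under 0.05). In alveolar macrophages Egr1, another gene of the list, had means of 2.92 ± 0.781 (CS) and 11.7 ± 1.34 (RA; SD over 4 mice each; log2 difference -1.71, adjusted p = 3.38e-05, limma). The part of the digestion response in the chaperone difference was not tested. The median percent of mitochondrial transcripts was higher in CS without overlap in mesothelium (2.74, 2.39 and 2.82 in CS mice 2 to 4, and 2.13, 2.17, 1.97 and 2.35 in RA mice) and in AT1 cells (1.75 to 3.26 against 1.33 to 1.71), and overlapped in the other 20 types. Its part in the chaperone difference was not tested. Median transcripts per cell overlapped between the groups in adventitial fibroblasts (8022 to 12473 in CS, 8551 to 13187 in RA) and gCap (3482 to 4925, 3024 to 5226). Plasma cells are known for very high chaperone levels, and a list of 7 of their markers was high in B cells of CS mouse 1 (20.2 against at most 1.28 in the other mice), lymphatic EC of RA mouse 3 (24.8 against at most 1.31), adventitial fibroblasts of RA mouse 1 (8.16 against at most 0.785) and alveolar fibroblasts of CS mouse 3 (5.56 against at most 0.226). Leaving out the cells above 10 Jchain transcripts per 10,000, which in these types were 5 B cells, 1 lymphatic EC, 3 adventitial fibroblasts and 1 alveolar fibroblast, gave ratios of 0.748, 0.521, 0.479 and 0.502 in place of 0.762, 0.518, 0.480 and 0.505. The only other such cell was 1 classical monocyte, with a ratio of 0.808 in place of 0.809.

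The other genes of the pathway were read from lists drawn up with earlier results of these data known, and each is described by its counts over the 22 types beside all genes (0.518% called lower, median 0.01). For the 6 sensors and proteases that cut ATF6, 0 of 117 values were called in either direction by limma (2 lower and 13 higher at an unadjusted p under 0.05), 35.0% were lower and the median of 0.03. Ern1 had a median of 0.04 over 22 types, Eif2ak3 0.07 over 19 and Atf6 0.07 over 22. Of the unfolded protein response transcription factors, 6 of 156 values were called lower (3.85%, median -0.09). Xbp1 was lower in mesothelium (1.88 ± 0.269 in 3 CS against 3.26 ± 0.210 in 4 RA mice, log2 difference -0.57, adjusted p = 0.0302, limma) and in adventitial fibroblasts (1.82 ± 0.285 against 2.68 ± 0.144, -0.39, adjusted p = 0.0438, limma). These transcript counts do not separate spliced from unspliced Xbp1. Cebpb was called in AT1 cells, ciliated cells and gCap, and Cebpg in gCap. Atf4 and Ddit3 were lower in 19 and 21 of 22 types with medians of -0.09 and -0.11, and were called in none by limma (3 and 8 types at an unadjusted p under 0.05).

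Targets of PERK and ATF4 gave 10 calls of 126 (7.94%, median -0.12), among them Atf3 in gCap (-1.01, adjusted p = 0.0422, limma) and adventitial fibroblasts (-0.56, adjusted p = 0.0360, limma), Atf5 in alveolar fibroblasts and aerocytes, and Ddit4 in venous EC and gCap. Other ER chaperones and co-chaperones gave 16 lower and 2 higher of 365 (4.38% and 0.548%, median -0.05). Dnajb11, the J-domain partner of BiP named above, was called in 5 types, most in adventitial fibroblasts (0.573 ± 0.115 against 1.32 ± 0.169, SD, n = 4, log2 difference -0.56, adjusted p = 0.00572, limma). Cnpy3, a helper of GRP94, was called in 4 and Fkbp2, an ER prolyl isomerase, in 2. The higher calls were small: Dnajc10 in gCap (0.14, adjusted p = 0.0350, limma) and Fkbp9 in ciliated cells (0.06, adjusted p = 0.0452, limma). The remaining disulfide isomerases and oxidases gave 5 of 311 (1.61%, median -0.02), with Pdia3 in alveolar fibroblasts, gCap and ciliated cells, Selenof in gCap and Tmx1 in ciliated cells.

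ER-associated degradation had 8 of 457 (1.75%, median -0.03), led by Selenos with 4 types and Derl2 with 2, and Edem1 was called in mesothelium alone. The translocon, through which chains enter the ER, and signal peptidase had 14 lower and 1 higher of 469 (2.99% and 0.213%, median -0.05). Ssr2 was called in 6 types, Spcs2 in 5 and Sec61b in 1, and Tram2 was higher in gCap (0.18, adjusted p = 0.0274, limma). N-glycosylation had 6 of 285 (2.11%, median -0.03), from Magt1 in 3 types, Ostc in 2 and Krtcap2 in 1. KDEL receptors, which return chaperones from the Golgi, and export factors had 3 of 353 (0.850%, median -0.04), Kdelr2 in 2 types and Tmed2 in 1. Chaperones outside the ER gave 27 of 292 (9.25%, median -0.16): Hspa8, the constitutive cytosolic Hsp70, was called in 7 types and most in ciliated cells (6.74 ± 1.26 against 21.4 ± 6.39, -1.499, adjusted p = 0.00502, limma), Hsp90ab1 in 5 types and Dnaja1 in 4. Hspa8 was called in AT1 cells, club cells and alveolar macrophages, where no ER chaperone of the set was. Over the 10 lists, 95 values were called lower and 3 higher, and the 95 became 41 with lane as a block, 35, 54, 43 and 24 without CS mice 1 to 4 in turn, and 56 and 44 without RA mice 2 and 4. With lane as a block the counts by list were 2 for transcription factors, 3 for PERK and ATF4 targets, 6 for other ER chaperones, 0 for disulfide isomerases, 4 for ER-associated degradation, 4 for the translocon, 2 for N-glycosylation, 0 for KDEL receptors and export, and 20 for chaperones outside the ER. Without CS mouse 4 they were 0, 1, 3, 0, 3, 5, 0, 1 and 11 in the same order. Of the genes named from these lists, Ssr2, Spcs2, Dnajb11, Cnpy3, Selenos, Atf5, Hspa8, Hsp90ab1 and Dnaja1 had at least 1 lower call with lane as a block and without any 1 mouse. With lane as a block they were called in 2, 2, 3, 2, 2, 1, 6, 3 and 3 types, and their lowest counts with 1 mouse left out were 3, 1, 2, 1, 2, 1, 4, 3 and 1. Xbp1, Cebpb, Magt1, Ostc and Edem1 had 1 call each with lane as a block and 0 without some single mouse. Atf3, Ddit4, Cebpg, Fkbp2, Pdia3, Selenof, Tmx1, Derl2, Sec61b, Krtcap2, Kdelr2 and Tmed2 had 0 with lane as a block and 0 without some single mouse. The 3 higher calls of Dnajc10, Fkbp9 and Tram2 became 0 with lane as a block.

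**Figure D5:**
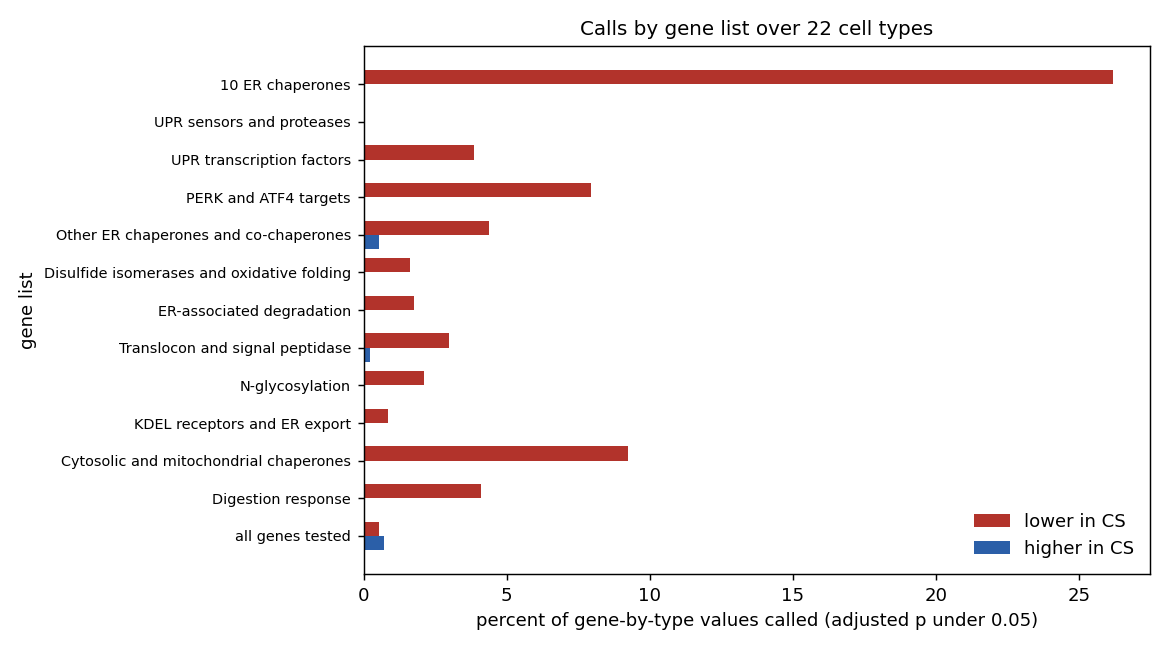
Bars give the percent of gene-by-type values called at an adjusted p under 0.05 in 22 cell types, red for lower and blue for higher in CS. The 10 ER chaperones (26.2%) were chosen by this contrast and are shown for scale only, the sensors have no bar (0 of 117), cytosolic and mitochondrial chaperones reach 9.25%, and all genes stand at 0.518% lower and 0.712% higher.

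The 10 genes outside the set that hold the element in their RefSeq window and passed the detection filter in at least 1 type gave 112 values, of which 0 were called lower and 2 higher by limma (8 and 9 at an unadjusted p under 0.05), with a median of -0.0013 and 50.9% lower, against 646 of 133302 values (0.485%) for genes with a window and without the element. At so low a background share, 0 of 112 says nothing about these genes. Canx, the membrane-bound relative of calreticulin, holds the element and was lower in 17 of 22 types with a median of -0.06 and no call. Syvn1, an ER ubiquitin ligase, was lower in 9 of 18 with a median of -0.01. The 2 higher calls were both of Acacb (ciliated cells and gCap), an enzyme of fatty acid metabolism.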

How the data were processed

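Single cells from the right lungs of 4 CS and 4 RA mice were sequenced, with the immune share set by hand. According to the methods and the submitters' processing notes, reads were aligned with STAR 2.7.3a and counted with STARsolo on GRCm38.p6, free RNA was subtracted with SoupX, and cells with few transcripts, little unspliced RNA or much mitochondrial RNA were removed. The deposited matrix holds estimated counts of transcripts, which are not whole after that subtraction, and the deposited cell table holds the authors' cell types and the percent of mitochondrial transcripts. The annotation's cells called multiplet were left out, and no further doublet caller was run. Every per-sample column was mapped to a mouse.

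Each cell was scaled to 10,000 and averaged per mouse and type (at least 20 cells per mouse, 3 mice per group). Genes found in 10% of the cells of either group were fitted per type with limma 3.58.1 (R 4.3.3, lmFit and eBayes with trend) on log2(mean + 1), with Benjamini-Hochberg adjustment at 0.05 over all genes of the type. SEs are limma's. Because estimated counts were averaged, no count model was run. The fit was also run on simulated data with noise independent between genes and mice, and no call rests on that run. Levels between types were compared within mice by exact sign-flip permutation (256 flips, smallest p 0.00781). Python 3.11.15, numpy 2.4.6 and pandas 2.3.3 were used. Intervals of counting error are not given, since the spread between mice contains it.

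The 10 genes and all gene lists were chosen with earlier results of these data known. Named were the 10 genes, the main transcription factors and sensors, up to 3 genes called in each direction per list, the 10 genes most alike, and Fos, Jun, Hspa1a and Jchain as checks. Of 161 other pathway genes 158 were matched. Egr1, Canx, Syvn1 and Acacb were named after their values were seen. Lanes, each with 1 CS and 1 RA mouse by the labels, gave the replicate block. Deviations of same-lane mice had median correlations over 17 types of -0.03, -0.02, -0.08 and 0.07. Pairs of mice from different lanes ran from -0.12 to 0.15. A lane effect was not tested with these values. Promoter windows came from the RefSeq table of GRCm38.p6, where 8 of the 10 genes were matched. Alternatives were another pseudocount, other filters, scalings and cell minimums, summed counts, lane, sex, thinning and leaving out each mouse.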

Additional observations from a re-analysis of the deposited data

How the results depend on the processing

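Of the 10 chaperones' values, 191 were lower and the median log2 difference was -0.25. The median was -0.51 with a pseudocount of 0.1 and -0.33 with genes found in 25% of cells, and between -0.30 and -0.24 when any 1 mouse was left out, with 186 to 193 values lower. With at least 50 cells per mouse 127 of 135 values in 15 types were lower. The 53 calls became 8 without a detection filter, where 546357 instead of 172262 values were tested, 33 with lane as a replicate block, and 24 to 56 with 1 mouse left out (24 without CS mouse 4, 34 without CS mouse 3). In the pathway lists the 95 lower calls became 6 without a detection filter, 41 with lane as a block and 24 to 87 with 1 mouse left out. Their 3 higher calls became 0 with genes found in 25% of cells, without a detection filter and with lane as a block, 5 with summed counts, and 0 to 3 with 1 mouse left out. The cause of the lane and single-mouse changes was not tested. Over all genes 892 lower and 1226 higher calls became 63 and 55 without a detection filter, 321 and 342 with lane as a block, and 211 to 933 lower with 1 mouse left out. Sex as a term, taken from Xist and Ddx3y and chosen after seeing the data, gave 55 calls of the chaperones and 109 lower calls of the lists. The AT2 comparison gave 4 genes higher in every alternative except a pseudocount of 0.1, which gave 5 (the 4 genes were also higher in 4 of 4 RA mice alone, a look chosen after seeing the data), and no lead of a highest type passed in any. The leading type of Pdia4, Sdf2l1 and Hyou1 changed in 5, 3 and 2 of 10 alternatives. In the means of the 4 RA mice alone, a comparison chosen after seeing the data, adventitial fibroblasts led for 8 genes, Calr, Pdia4, Sdf2l1 and Hyou1 among them. Hyou1 and Sdf2l1 fell under the detection filter in 8 and 4 types, and low depth and low expression were not told apart.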
